A study of Mus musculus with 6 samples.

Results

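The annexin genes described here are 8 members of the mouse annexin family, Anxa1, Anxa2, Anxa3, Anxa4, Anxa5, Anxa6, Anxa7 and Anxa11. They were chosen by name, by a rule that uses no measured value although earlier results of these data were known, and are 8 of the 42450 genes in the table of total RNA-seq counts. All 8 passed the filter on low counts, as did 18905 genes in all. The cells were the male mouse embryonic stem cell (ESC) line E14tg2a.4. They were kept in medium with serum and LIF, the cytokine that keeps mouse ESCs undifferentiated. Before collection they were grown in serum-free medium with LIF. The WT group held 3 libraries of the parental line. The Srrm2+/- group held 3 libraries of a line in which a gene-trap cassette interrupts 1 allele of Srrm2, the gene of a large scaffold protein of nuclear speckles that takes part in splicing. No other treatment or allele was labelled. The Srrm2+/- line is 1 clone and its libraries came from earlier passages than the WT libraries, so genotype, clone and passage cannot be told apart. Replicates were separately frozen and thawed batches of each line.

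Annexins are cytoplasmic proteins that dock on negatively charged phospholipids, above all phosphatidylserine, when calcium rises. Each carries a conserved core of annexin repeats that binds calcium and lipid, and a short, variable head that binds partner proteins such as the small EF-hand proteins of the S100 family. They are known for roles at the plasma membrane and on endosomes: organizing lipid domains and the actin cortex, guiding vesicle traffic and sealing membrane wounds. In mouse tissues Anxa1, Anxa2 and Anxa3 are well known from epithelial and other adherent cells.

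Of the 8 members, 5 rose in Srrm2+/- cells and none fell by edgeR at an adjusted p under 0.05. Anxa3 rose 14.2-fold, Anxa1 11.3-fold, Anxa2 8.92-fold, Anxa5 1.90-fold and Anxa6 1.27-fold. The other 3 members, Anxa4, Anxa7 and Anxa11, did not pass the test. Among all tested genes, 25.3% passed, 13.6% as higher and 11.7% as lower, so passing the test was common in these libraries, whereas a rise as large as those of Anxa1, Anxa2 and Anxa3 was not: a called log2 fold change of at least 3 was found for 0.513% of tested genes. The median log2 fold change was 0.63 over the 8 members and -0.0025 over all tested genes. At an unadjusted p under 0.05, 7 members were higher and 1, Anxa7, was lower. The share of all tested genes at this unadjusted threshold is not given. Unadjusted counts, here and for the lists below, therefore cannot be set against it. DESeq2 called 1 member lower and limma voom called 0.

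Libraries held 54151532 to 69933465 estimated counts. Every Srrm2+/- library (at least 61023103) held more than any WT library (at most 58499961). Levels below are CPM, that is, counts scaled to library size with TMM factors, which correct for differences in RNA composition. Srrm2 itself averaged 95.7 CPM (SD 3.94, n = 3) in the parental cells and 59.3 CPM (SD 3.02, n = 3) in the heterozygous cells, and its log2 fold change was -0.69 (SE 0.05, adjusted p = 2.38e-05 by edgeR). The ESC label was checked against pluripotency markers: Pou5f1 ranged from 810 to 863 CPM over the 6 libraries and was not called (log2 fold change -0.04, adjusted p = 0.485), while 5 of the 8 markers, among them Nanog (log2 fold change -0.72) and Klf4 (-0.82), were called lower and 1, Dppa4 (0.14), was called higher. Among all tested genes 11.7% were called lower and 13.6% higher.

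Promoter sequence upstream of the annotated exons is shown for the called genes Anxa2 and Anxa5, beside the uncalled Anxa11, since these members share a protein family but differed in their change. RefSeq promoter windows (GRCm38.p6, 250 bases before to 50 after a start) matched 6 of the 8 members, with 8 windows; Anxa3 and Anxa6 had no entry. Capitals mark the AP-1 site (TGANTCA, read here as TGAGTCA) and the SP1 box (GGGCGG, or CCGCCC on the other strand), and each line stops before the first annotated exon base. The Anxa2 stretch is chr9:69453433-69453619 (plus strand), that of Anxa5 is chr3:36475895-36476137 (minus strand) and that of Anxa11 is chr14:25841905-25842154 (plus strand).
Anxa2: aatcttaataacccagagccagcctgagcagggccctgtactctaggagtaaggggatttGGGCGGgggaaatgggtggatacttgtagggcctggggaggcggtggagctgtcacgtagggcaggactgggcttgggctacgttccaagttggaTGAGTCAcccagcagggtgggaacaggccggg
Anxa5: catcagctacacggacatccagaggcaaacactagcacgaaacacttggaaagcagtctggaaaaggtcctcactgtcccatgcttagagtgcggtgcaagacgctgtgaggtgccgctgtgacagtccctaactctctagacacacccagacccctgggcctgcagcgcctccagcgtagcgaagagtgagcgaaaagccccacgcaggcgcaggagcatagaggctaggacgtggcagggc
Anxa11: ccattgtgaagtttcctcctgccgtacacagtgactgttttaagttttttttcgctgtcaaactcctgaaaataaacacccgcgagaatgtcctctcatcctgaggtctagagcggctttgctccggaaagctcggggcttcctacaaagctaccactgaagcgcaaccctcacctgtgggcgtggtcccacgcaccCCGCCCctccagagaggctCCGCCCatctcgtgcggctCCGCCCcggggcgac

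The AP-1 letters of Anxa2 begin 95 bases before the RefSeq start and its SP1 box 190 bases before it. The last 63 bases before this start are annotated exon and are not shown. Anxa11 has 3 SP1 boxes, beginning 53, 34 and 15 bases before the start, and Anxa5 has none of the motifs searched. Over the 250 bases before each start and both strands, the AP-1 site was found in 1 of the 8 member windows, that of Anxa2, and in 6.75% of 32851 promoters of the same length. The SP1 box was found in 4 of the 8 windows and in 32.7% of promoters. These 4 include both windows of Anxa7, which overlap and hold the same box. The TEAD motif GGAATG was found in the Anxa1 window and in 12.6% of promoters, and the letters TATAAA in the windows of Anxa1 and Anxa2 and in 12.4% of promoters. All 250 of the bases before the Anxa1 start lie in an annotated exon, so these Anxa1 matches are in exon sequence, as is the TATAAA match of Anxa2. The CArG box, the site of serum response factor, was in 0 of the 8 windows and in 1.47% of promoters. No motif was common to the windows of the called members, and a match says only that the letters are present. The motifs overlap no other searched motif in the stretches shown.

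The largest changes were in Anxa1, Anxa2 and Anxa3. Anxa1 (chr19:20373428-20390944, minus strand) encodes a calcium-dependent phospholipid-binding protein that, once outside the cell, is a ligand of formyl peptide receptors and dampens inflammation. It stood at 3.15, 2.61 and 1.51 CPM in WT replicates 1 to 3 and at 24.22, 32.81 and 25.48 CPM in Srrm2+/- replicates 1 to 3. Every Srrm2+/- library was above every WT library. The log2 fold change was 3.50 ± 0.22 (SE, adjusted p = 9.71e-06). The WT values rested on 81.4 to 175 estimated counts, and its standard error was the widest of the 8 members.

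Anxa2 (chr9:69453620-69491795, plus strand) encodes the annexin that pairs with S100a10 at the plasma membrane, where the complex tethers actin and binds tissue plasminogen activator. It stood at 4.69, 3.93 and 5.13 CPM in WT and at 40.92, 41.07 and 40.44 CPM in Srrm2+/- libraries. The Srrm2+/- libraries lay within 1 CPM of each other and far from the WT libraries. The log2 fold change was 3.16 ± 0.09 (SE, adjusted p = 1.32e-07).

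Anxa3 (chr5:96793339-96845966, plus strand) encodes an annexin described as an inhibitor of phospholipase A2. It stood at 3.08, 1.75 and 2.28 CPM in WT and at 35.3, 33.48 and 31.7 CPM in Srrm2+/- libraries. Of all tested genes ranked by log2 fold change from the top, Anxa3 was at place 36, Anxa1 at place 50 and Anxa2 at place 78. The log2 fold change of Anxa3 was 3.82 ± 0.15 (SE, adjusted p = 9.65e-07), and its groups did not overlap.

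**Figure D1:**
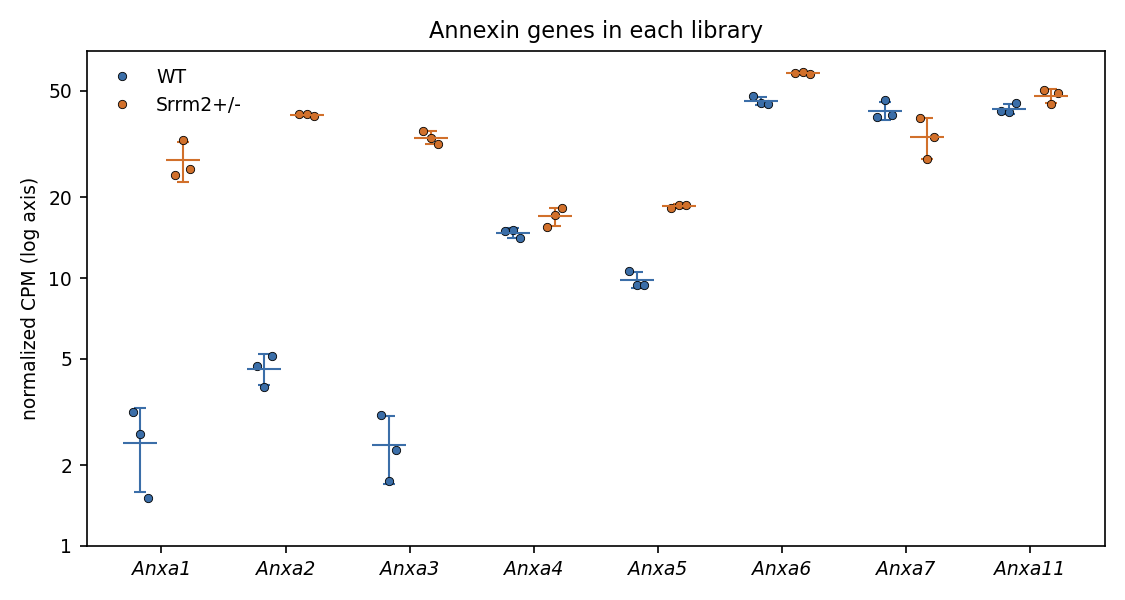
Level of each annexin gene in each library, in normalized CPM on a log axis; points are libraries, horizontal lines the group means and bars 1 SD (n = 3). Anxa1, Anxa2 and Anxa3 lie between 1.51 and 5.13 CPM in WT and between 24.22 and 41.07 CPM in Srrm2+/- libraries, while the groups lie close together for Anxa4, Anxa7 and Anxa11.

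Anxa5 and Anxa6 rose by less. Anxa5 (chr3:36448923-36475894, minus strand) encodes the phosphatidylserine-binding protein whose labelled form is used to stain dying cells. It stood at 10.6, 9.43 and 9.43 CPM in WT and at 18.25, 18.81 and 18.82 CPM in Srrm2+/- libraries, with a log2 fold change of 0.92 ± 0.07 (SE, adjusted p = 2.09e-05). Anxa6 (chr11:54979108-55033445, minus strand) encodes the annexin with a duplicated core, which binds the Ras regulator encoded by Rasa1. Its level was 47.86, 45.06 and 44.81 CPM in WT and 58.16, 58.86 and 57.75 CPM in Srrm2+/- libraries. Its log2 fold change was 0.34 ± 0.04 (SE, adjusted p = 0.00047). In both genes all Srrm2+/- libraries were above all WT libraries, although the step was far smaller than in Anxa1, Anxa2 and Anxa3.

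Anxa4, Anxa7 and Anxa11 did not pass the test, and each missed it narrowly. Anxa4 (chr6:86736840-86793584, minus strand), an annexin of secretory epithelia, stood at 15.05, 15.15 and 14.06 CPM in WT and at 15.52, 17.21 and 18.22 CPM in Srrm2+/- libraries. Its log2 fold change was 0.20 (95% interval 0.04 to 0.37, adjusted p = 0.0714). Without Srrm2+/- replicate 1 it was called higher (adjusted p = 0.0264). The Srrm2+/- libraries were above the WT libraries, by less than 1 CPM at the closest.

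Anxa7 (chr14:20455260-20480133, minus strand), also known as synexin, binds the calcium sensor sorcin and was the single member with a negative log2 fold change. It stood at 39.99, 46.17 and 40.51 CPM in WT and at 39.51, 27.88 and 33.78 CPM in Srrm2+/- libraries. Srrm2+/- replicate 1 lay next to the WT libraries and replicate 2 well below them. The log2 fold change was -0.32 (95% interval -0.58 to -0.06, adjusted p = 0.0703), and it was called lower without Srrm2+/- replicate 1 (log2 fold change -0.45, adjusted p = 0.0153).

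Anxa11 (chr14:25842156-25886804, plus strand) binds S100a6 and the calcium sensor encoded by Pdcd6. It stood at 41.95, 41.55 and 45.18 CPM in WT and at 50.26, 44.79 and 49.17 CPM in Srrm2+/- libraries, so that the groups overlapped. The log2 fold change was 0.16 (95% interval 0.03 to 0.29, adjusted p = 0.0671), and it was called higher without Srrm2+/- replicate 2 (adjusted p = 0.0319). Of the 31-base words of its transcripts, 17.2% also occur in other genes, 627 of them in the pseudogene Gm2260, which was estimated at 1.39 to 3.76 CPM, so the split of reads between these copies is uncertain. For the called members this share was 0% for Anxa1, Anxa5 and Anxa6, 1.86% for Anxa2 and 2.75% for Anxa3. The antisense gene Anxa11os stood at 0.306 CPM in Srrm2+/- cells on average and was not called.

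Over the 8 members, all Srrm2+/- libraries were above all WT libraries for 6 genes, a pattern found in 21.4% of tested genes.

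**Figure D2:**
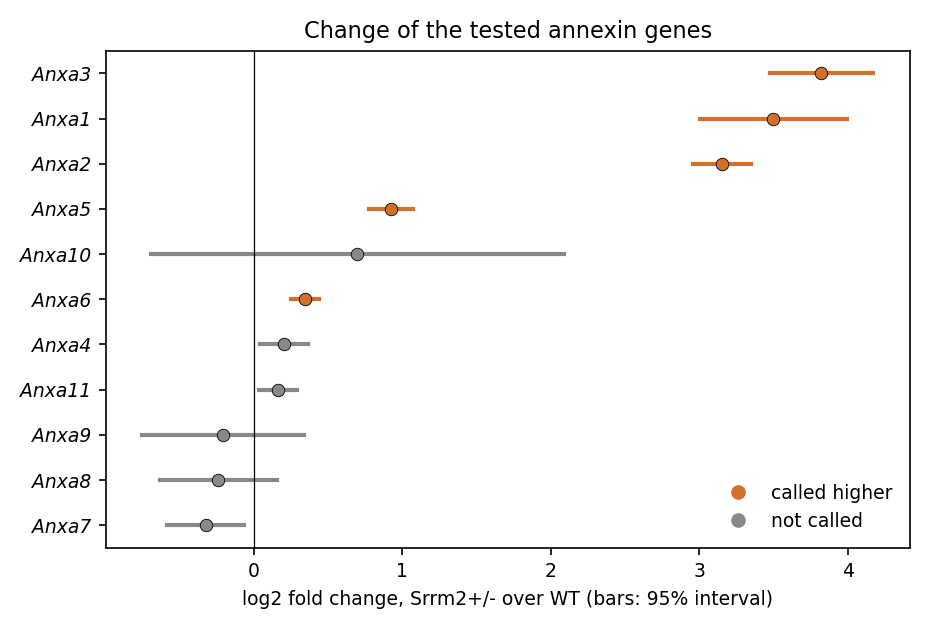
Log2 fold change of each tested annexin gene, Srrm2+/- over WT, with its 95% interval. Anxa1, Anxa2 and Anxa3 lie above 3, Anxa5 and Anxa6 lie between 0.34 and 0.92, and Anxa7 lies at -0.32.

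The remaining annexin genes of the annotation were low in both groups. Anxa8 averaged 1.84 CPM in WT and 1.56 CPM in Srrm2+/- cells (log2 fold change -0.24, adjusted p = 0.372). Anxa9 averaged 0.735 and 0.636 CPM (log2 fold change -0.21, adjusted p = 0.592), and Anxa10, at 0.106 and 0.175 CPM, had a log2 fold change of 0.70 with an interval from -0.69 to 2.09. Anxa13 had 0 counts in all 6 libraries, which allows up to 0.0433 to 0.0560 CPM depending on the library. Anxa13 was not tested. None of the 3 tested genes was called by edgeR, DESeq2 or limma voom, and 0 of them had an unadjusted p under 0.05.

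**Figure D3:**
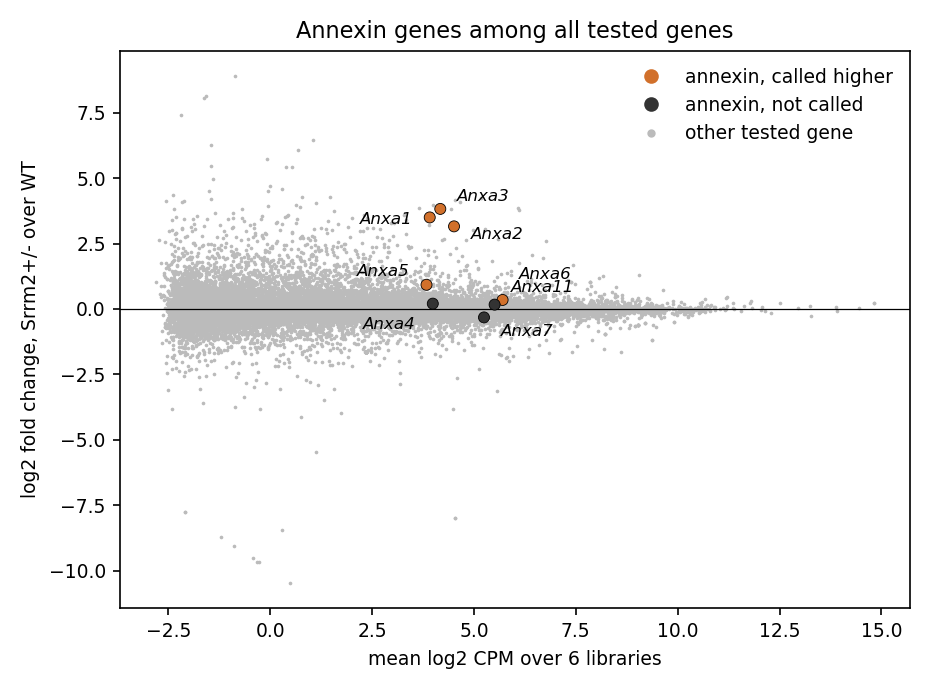
Log2 fold change against mean log2 CPM over the 6 libraries for every tested gene (grey), with the 8 annexin genes marked. Anxa1, Anxa2 and Anxa3, at log2 fold changes of 3.50, 3.16 and 3.82, sit above nearly all genes of like abundance.

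To compare abundance between members, CPM was divided by the length of the annotated exons in kilobases. On this per-length scale the order in WT was Anxa6, Anxa11, Anxa7, Anxa5, Anxa4, Anxa2, Anxa1 and Anxa3. Anxa6 led with 15.7 ± 0.578 CPM per kb (SD, n = 3), and Anxa11 followed with 10.4 ± 0.481. Anxa2, Anxa1 and Anxa3 closed the order with 1.23 ± 0.164, 0.833 ± 0.287 and 0.650 ± 0.184 CPM per kb, and their ranges overlapped from one to the next. All the other neighbours in the WT order had ranges that did not overlap.

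In Srrm2+/- cells the order on the same scale was Anxa6, Anxa11, Anxa2, Anxa5, Anxa1, Anxa3, Anxa7 and Anxa4. Anxa6 still led with 19.9 ± 0.192 CPM per kb (SD, n = 3). Anxa2 reached 10.9 ± 0.0883, within the range of Anxa11 at 11.6 ± 0.700, and Anxa5, Anxa1 and Anxa3 followed at 10.5 ± 0.182, 9.45 ± 1.59 and 9.19 ± 0.494, with ranges that overlapped from one to the next. Anxa7 and Anxa4 closed the order at 5.63 ± 0.970 and 3.66 ± 0.294. The order depends on the length used: with the longest transcript in place of all exons, Anxa3 stood at place 2 in Srrm2+/- cells and Anxa11 at place 4.

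The summed per-length level of the 8 members was 44.5 ± 0.912 CPM per kb in WT and 80.9 ± 0.708 in Srrm2+/- cells (SD, n = 3). Anxa1, Anxa2 and Anxa3 together made up 6.99%, 5.50% and 5.75% of it in the WT libraries and 35.7%, 38.7% and 35.3% in the Srrm2+/- libraries. The share of Anxa6 went from 35.2% ± 0.578 to 24.6% ± 0.127 although its own level rose, and that of Anxa7 from 15.8% ± 1.45 to 6.96% ± 1.20. Anxa5 kept a near-constant share, 12.4% ± 0.596 and 13.0% ± 0.293. A share shows how the members stand to each other and not how one of them changed.

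**Figure D4:**
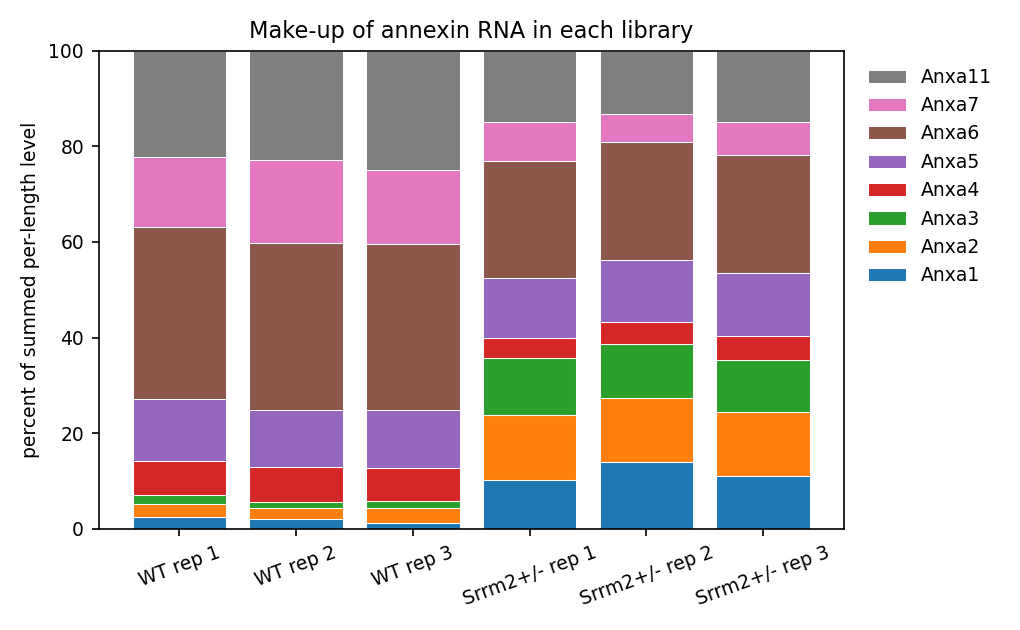
Make-up of annexin RNA by library: each bar splits the summed CPM per kb of the 8 members into percent per gene. The Anxa1, Anxa2 and Anxa3 blocks together take 5.50% to 6.99% of the WT bars and 35.3% to 38.7% of the Srrm2+/- bars.

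Proteins that bind annexins were described from a list of 14 partner genes, of which 10 were tested. Of these, 8 rose, 0 fell and 2 were not called, with a median log2 fold change of 0.53. Over all tested genes 13.6% rose, 11.7% fell and the median log2 fold change was -0.0025. At an unadjusted p under 0.05, 8 were higher and 0 lower by edgeR, DESeq2 and limma voom alike, while at an adjusted p under 0.05 DESeq2 called 6 and limma voom 7. S100a6, a calcium sensor that binds Anxa11 and Anxa2, stood at 1.32, 0.62 and 1.27 CPM in WT and 7.11, 8.82 and 9.12 CPM in Srrm2+/- libraries (log2 fold change 2.97 ± 0.24, SE, adjusted p = 4.64e-05). Plat, tissue plasminogen activator, which docks on the Anxa2 complex, rose by 1.83 on the log2 scale (0.32 to 0.55 CPM in WT, 0.94 to 1.94 CPM in Srrm2+/- libraries). Ahnak, a giant scaffold protein recruited by Anxa2 and S100a10, ranged from 160.7 to 168.9 CPM in WT and from 365.9 to 390.0 CPM in Srrm2+/- libraries (log2 fold change 1.18 ± 0.04, SE, adjusted p = 4.55e-07).

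Direct partners of Anxa1 and Anxa2 had smaller log2 fold changes than these annexins. S100a10, the partner of Anxa2, was at 39.54, 39.32 and 36.16 CPM in WT and at 49.26, 47.29 and 52.24 CPM in Srrm2+/- libraries (log2 fold change 0.37 ± 0.06, SE, adjusted p = 0.00138). The per-length ratio of Anxa2 to S100a10 was 0.0390 ± 0.00685 in WT and 0.268 ± 0.0154 in Srrm2+/- cells (SD, n = 3), so S100a10 RNA was in excess in both groups. S100a11, the partner of Anxa1, had a log2 fold change of 0.68 ± 0.11 (SE, adjusted p = 0.00246), and the ratio of Anxa1 to S100a11 went from 0.0706 ± 0.0259 to 0.508 ± 0.156. Since 48.9% of the 31-base words of S100a11 are shared with other genes, mostly the pseudogene Gm12854 at 0.144 to 0.305 CPM, its level is uncertain. The ratio of Anxa11 to S100a6 moved the other way, from 14.8 ± 6.32 to 1.93 ± 0.354. For each of these 3 ratios the groups did not overlap, and a 2-sided exact permutation test of the log2 ratios gave p = 0.1, the smallest that 3 libraries against 3 allow (adjusted p = 0.125 over the 5 ratios computed).

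Of the other partners, Pdcd6 (log2 fold change 0.13, adjusted p = 0.0411) and Pef1 (0.30, adjusted p = 0.0128), which form a calcium-sensing dimer, rose, and Pdcd6 lost its call when any 1 library was left out (adjusted p 0.0705 to 0.125). The per-length ratio of Anxa11 to Pdcd6 was 0.663 ± 0.0215 in WT and 0.679 ± 0.0348 in Srrm2+/- cells (SD, n = 3, exact permutation p = 0.6, adjusted p = 0.6), and that of Anxa7 to Sri 2.11 ± 0.187 and 1.56 ± 0.245 (exact permutation p = 0.1, adjusted p = 0.125). Sri, the gene of sorcin, the partner of Anxa7, had a log2 fold change of 0.09 (adjusted p = 0.485), and Rasa1, the partner of Anxa6, one of -0.0015 (adjusted p = 0.985). Pla2g4a, the cytosolic phospholipase A2, was low, at 0.36 to 0.65 CPM in WT and 0.70 to 1.24 CPM in Srrm2+/- libraries (adjusted p = 0.0484). Its call was lost without WT replicate 1 or 2 or Srrm2+/- replicate 1 or 3 (adjusted p 0.113 to 0.173). The formyl peptide receptor genes Fpr2 and Fpr3, whose products bind secreted Anxa1, had 0 counts in all 6 libraries, and Fpr1 had counts in 1 library only.

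Genes of membrane repair, the ferlins among them, numbered 17, of which 15 were tested, 6 rose, 2 fell and 7 were not called (median log2 fold change 0.13). Among all tested genes the shares were 13.6% higher and 11.7% lower. The heavy subunits of the conventional calpains, calcium-activated proteases that act at membrane wounds, moved in opposite directions. Capn2 ranged from 9.86 to 10.97 CPM in WT and from 41.09 to 41.57 CPM in Srrm2+/- libraries (log2 fold change 2.01 ± 0.06, SE, adjusted p = 1.32e-07), while Capn1 fell by 0.53 on the log2 scale (46.3 to 49.6 CPM in WT, 32.5 to 34.2 CPM in Srrm2+/- libraries, adjusted p = 6.61e-05). Their shared small subunit gene, Capns1, had a log2 fold change of -0.08 (adjusted p = 0.276). Ehd2, a membrane-bending ATPase of caveolae, rose by 1.98 on the log2 scale (0.54 to 0.71 CPM in WT, 2.23 to 2.93 CPM in Srrm2+/- libraries). Myof, the ferlin with the highest level in these cells, fell by 0.86 on the log2 scale (10.3 to 11.8 CPM in WT, 5.42 to 6.53 CPM in Srrm2+/- libraries, adjusted p = 0.000301), and Dysf had a log2 fold change of 0.91 (adjusted p = 0.197). Smaller rises were called for Ehd4, Pdcd6ip, Ehd1 and Vps4b, with log2 fold changes of 0.43, 0.28, 0.22 and 0.13. Ehd1 lost its call without WT replicate 1 or 2 or Srrm2+/- replicate 1 or 3 (adjusted p 0.0593 to 0.0781), and Vps4b without any library but Srrm2+/- replicate 1 (adjusted p 0.0745 to 0.159).

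Copines are another family of calcium-dependent phospholipid-binding proteins. Of 9 genes 7 were tested, 1 rose and 2 fell, beside 13.6% and 11.7% of all tested genes. Cpne2 rose by 2.17 on the log2 scale (0.17 to 0.54 CPM in WT, 1.20 to 1.55 CPM in Srrm2+/- libraries, adjusted p = 0.00332), and Cpne5 and Cpne9 fell by 0.62 and 0.55. Cpne9 lost its call without WT replicate 2 or Srrm2+/- replicate 1 (adjusted p 0.0505 and 0.0511), while Cpne3 and Cpne8 gained one without WT replicate 2 (adjusted p = 0.00882 and 0.0447) and Cpne1 without WT replicate 3 (adjusted p = 0.0244). Of the 14 genes of phosphatidylserine exposure, which set how much of the annexin ligand faces outward, 12 were tested, 2 rose and 3 fell. These counts too stand beside 13.6% and 11.7% of all tested genes. Among those that fell were Atp8a1 (log2 fold change -0.62, adjusted p = 4.23e-05) and Atp11a (-0.21, adjusted p = 0.0422), whose products are flippases that return phosphatidylserine to the inner leaflet. Tmem30a, a common subunit of flippases, had a log2 fold change of -0.03 (adjusted p = 0.692). Those that rose were Xkr4, of a scramblase family, at 2.18, and Plscr3 at 0.35, while the scramblase genes Ano6 (0.32, adjusted p = 0.0632) and Xkr8 (-0.06, adjusted p = 0.743) were not called. Atp11a lost its call without WT replicate 1 or 2 or Srrm2+/- replicate 2 or 3 (adjusted p 0.0782 to 0.151), and Plscr3 without any library but Srrm2+/- replicate 2 (adjusted p 0.0973 to 0.153).

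**Figure D5:**
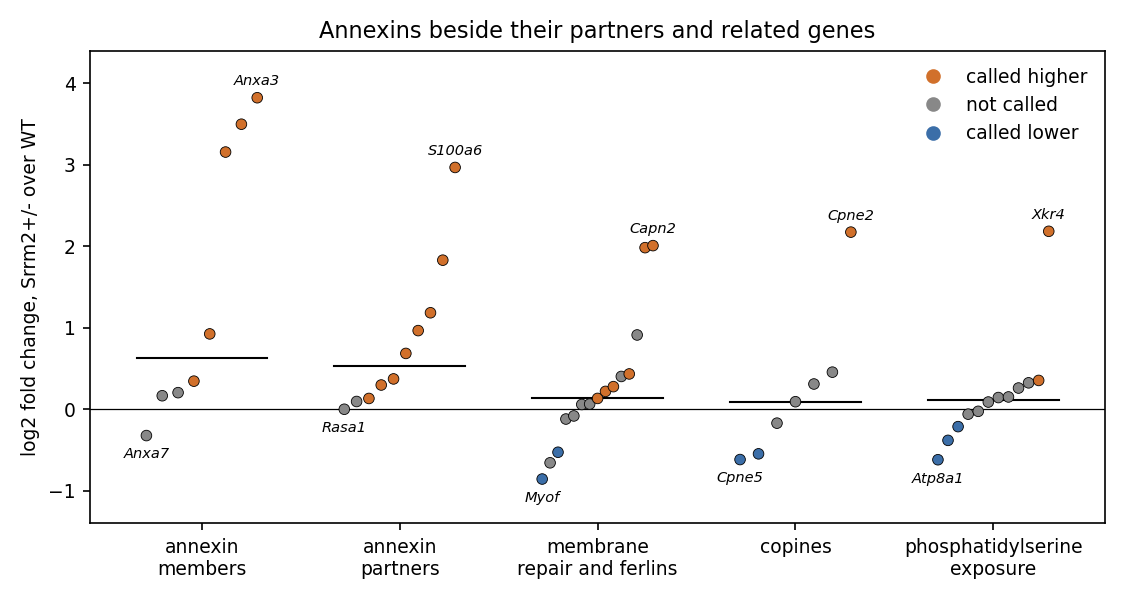
Log2 fold change of each tested gene of 5 lists, coloured by the call at an adjusted p under 0.05, with the median of each list as a line. The annexin members reach 3.82 and the partners 2.97, and neither list has a gene called lower.

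The libraries were also read for genes of other cell types that an ESC culture could hold. Counts of calls below stand beside 13.6% higher and 11.7% lower among all tested genes. Fibroblast genes were 8, of which 6 were tested, 4 called higher and 0 lower (edgeR; at an unadjusted p under 0.05, 4 higher and 1 lower, and 0 lower at an adjusted p by DESeq2 or limma voom), and their summed level was 3.47 to 3.68 CPM in WT and 6.99 to 10.9 CPM in Srrm2+/- libraries. Col1a2 rose (0.11 to 0.26 CPM in WT, 2.44 to 3.84 CPM in Srrm2+/- libraries). Postn, Col3a1 and Col1a1 rose as well, with log2 fold changes of 2.83, 2.28 and 1.13. Thy1, the largest part of the WT sum, averaged 1.93 CPM in WT and 1.19 CPM in Srrm2+/- cells. It was not called (log2 fold change -0.70, adjusted p = 0.0939), but was called lower without Srrm2+/- replicate 3 (adjusted p = 0.00779). Pdgfrb was not called (0.23, adjusted p = 0.685). Dcn had 0 counts in WT and at most 0.06 CPM in Srrm2+/- libraries, and Lum at most 0.05 CPM in any library. Of 8 trophectoderm genes 6 were tested, 3 rose and 1 fell, and their sum was 68.8 to 72.9 CPM in WT and 269 to 299 CPM in Srrm2+/- libraries. Most of the WT sum was Tfap2c, a transcription factor, which fell by 0.71 on the log2 scale (50.1 to 51.0 CPM in WT, 29.6 to 32.9 CPM in Srrm2+/- libraries), and most of the Srrm2+/- sum was the epithelial keratins Krt8 and Krt18, which rose by 3.85 and 3.79. Eomes, the third gene that rose, lost its call without any library but WT replicate 2 (adjusted p 0.0532 to 0.139). Cdx2, which defines that lineage, had 0 counts in WT and 0.07 to 0.28 CPM in Srrm2+/- libraries. Of 8 primitive endoderm genes 6 were tested, 1 rose and 1 fell, and their sum was 50.3 to 61.9 CPM in WT and 35.8 to 39.4 CPM in Srrm2+/- libraries. Most of this sum in both groups was the gene that fell, Lama1 (47.9 to 59.2 CPM in WT, 32.9 to 36.9 CPM in Srrm2+/- libraries, log2 fold change -0.64). The gene that rose was Dab2 (0.38 to 0.55 CPM in WT, 0.85 to 1.58 CPM in Srrm2+/- libraries, log2 fold change 1.34). Gata4, Gata6 and Sox17 stayed at or below 1.07 CPM. The fibroblast and trophectoderm sums were higher and the primitive endoderm sum lower where Anxa1, Anxa2 and Anxa3 were higher. The trophectoderm sum followed Krt8 and Krt18 while Tfap2c fell, and the primitive endoderm sum followed Lama1 while Dab2 rose. Sums led by so few genes do not measure the amount of a cell type. Whether such cells had a part in the annexin changes was not tested. In bulk RNA, more cells with annexin RNA and more annexin RNA per cell cannot be told apart.

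The members are spread over 7 chromosomes, with Anxa7 and Anxa11 on chromosome 14. Within 250 kb of the members, 65 other genes were tested, of which 7 rose and 5 fell. Over all tested genes the shares were 13.6% higher and 11.7% lower. Anxa2 had 2 tested neighbours, neither called, with a highest log2 fold change of 0.15, and Anxa1 had 0. Anxa3 had 3, of which Bmp2k and Fras1 rose. Anxa6 had 10, of which Gpx3 rose and Gm2a, Tnip1 and Fat2 fell.

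The 6 libraries fall into the 2 groups and differ in depth, so what follows is a description. Among 11953 genes, those whose log2 CPM followed a member most closely were sought for the members with the largest and smallest log2 fold change. For Anxa3 these were Ptpn14, a phosphatase that restrains YAP signalling (Pearson r = 0.9996), Nt5e, a surface enzyme that makes adenosine (r = 0.9993), and Dsc2, a desmosomal cadherin (r = 0.9993). Ptpn14 stood at 4.22 to 5.62 CPM in WT and 21.8 to 23.2 CPM in Srrm2+/- libraries. As 184 genes had r above 0.99 with Anxa3, the order among them carries little. For Anxa7 they were Smap2 (r = 0.996), Klhdc10 (r = 0.9904) and Rps6ka2 (r = 0.986), none of them called, and 2 genes had r above 0.99.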

How the data were processed

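Total RNA was sequenced from 3 WT and 3 Srrm2+/- libraries of mouse ESCs (stranded, paired-end). The authors deposited 1 table of estimated counts per gene for 42450 genes, made with kallisto 0.46.1 on GENCODE release 24 (mm10), not normalized. kallisto splits reads between near-identical transcripts, so pseudogene copies can take reads. Of the identifiers, 42156 were matched to names in GENCODE release 21 (GRCm38), which also gave coordinates and exon lengths.

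Estimated counts were rounded and fitted across all genes with edgeR 4.0.16 (quasi-likelihood test, TMM, filterByExpr with a minimum count of 10 and total of 15), with 18905 genes tested, Benjamini-Hochberg adjustment and a call at an adjusted p under 0.05 (2-sided). The SE was the absolute log2 fold change divided by the square root of F. Intervals were at 95%. Depth was 54151532 to 69933465 counts a library. A count of 0 allows up to 3 counts. Intervals come from the same fit and cover the spread between libraries. Floors cover counting error only, and neither covers all technical steps. Replicates were frozen batches of the same lines, so p-values measure the spread between these. No library pair differed by less than sampling noise. Alternatives were scaling by RLE or by the upper quartile, fits with DESeq2 1.42.0 and limma voom (limma 3.58.1), other filters and thresholds, a replicate block, each library left out and the longest transcript as length. The fit was tested on simulated counts.

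The members and lists were chosen with earlier results of these data known. Genes were named by rule: the members, the other annexins and at least the 2 largest rises and falls called in each list. So were the 3 genes most like the members with the largest and smallest log2 fold change (mean log2 CPM of at least 1). Of the cell type markers only some are named. Neighbours, motifs and word sharing (31 bases) are descriptions. Promoter sequences were taken from RefSeq. The values of 1 listed gene are not reported here.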

Additional observations from a re-analysis of the deposited data

How the results depend on the processing

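Anxa1, Anxa2, Anxa3, Anxa5 and Anxa6 kept their direction and call under all 13 refits (other normalizations, tools and filters, a replicate block, and each library left out), with lowest log2 fold changes of 3.26, 3.06, 3.64, 0.90 and 0.33. Replicate numbers did not pair the samples (correlations of same-numbered deviations -0.028, -0.034 and -0.030). With the replicate block 4166 genes were called, 5 of them members. The members called lower were 1 (Anxa7) with DESeq2 and with no filter on low counts, and 0 to 1 over the fits with 1 library left out. A call that also needed a log2 fold change of 1 or more in either direction left 1153 genes (813 higher, 340 lower), 3 members (all higher), 3 partners, 2 membrane repair genes, 1 copine and 1 gene of phosphatidylserine exposure. An adjusted p under 0.01 left 2779 genes (1574 higher, 1205 lower), 5 partners and 3 genes of phosphatidylserine exposure. That last list also had 3 calls with limma voom and 3 to 4 with 1 library left out (3 without WT replicate 1, WT replicate 2 or Srrm2+/- replicate 3). With a filter of 1 CPM in every library of a group, 5 copines were called and Anxa11 was called higher. The cause of these shifts was not tested. With the longest transcript as length, the summed level was 64.9 CPM per kb in WT and 125 in Srrm2+/- cells, with 7.61% and 44.2% from Anxa1, Anxa2 and Anxa3. Depth limits what can be said of every gene under 2 CPM, among them Anxa9, Anxa10, Pla2g4a, Plat, Cpne2, Dab2, Eomes and Postn.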
